A study of Arabidopsis thaliana with 9 samples.

Results

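The core genes of light signalling in Arabidopsis thaliana were followed in the apical hook. They were named by gene identifier, with earlier results of these data known. Of the 10 named, 8 were measured among the 16383 genes of the deposited table. These are the transcription factor genes PIF1 (AT2G20180), PIF3 (AT1G09530), PIF4 (AT2G43010), PIF5 (AT3G59060), PIF7 (AT5G61270), HY5 (AT5G11260) and HYH (AT3G17609) and the photoreceptor gene PHYA (AT1G09570). COP1 (AT2G32950) and PHYB (AT2G18790) were not analysed here. Hooks of 3 genotypes were compared, with 3 libraries each, namely the mutant tmk1-1 (called tmk1), the double mutant iaa32iaa34, and the wild type Col-0 (called WT). All seedlings were 45 h old and had grown at 22 °C in the dark, and each library came from a pool of about 50 hooks of about 2 mm, cut so that the cotyledons were left behind. TMK1 encodes a kinase that sits in the plasma membrane and acts in auxin responses. The repressors IAA32 and IAA34 belong to the Aux/IAA family but lack its usual degron. The labels name 1 line per mutant, so a difference between genotypes cannot be told apart from a difference between lines.

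The apical hook is the bent upper stem that shields the shoot tip while a seedling grows through soil. In darkness PIF proteins, which are basic helix-loop-helix transcription factors, accumulate, favour stem elongation and hook maintenance, and hold back greening. The ubiquitin ligase COP1 meanwhile removes HY5 and HYH, a pair of related bZIP factors that favour greening and opening of the hook. Light acts through phytochromes, which move into the nucleus, trigger the destruction of PIF proteins and curb COP1. Much of this control acts on protein stability, which transcript levels do not show.

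The values are CPM (reads of a gene relative to the library total), and the steps between low values gave library totals of 10077093 to 13601488 reads. The measured genes were covered by 24 to 16407 reads per library. The targeted genes matched the labels, with TMK1 at 33.7 ± 10.1 CPM in tmk1 against 441 ± 47.0 CPM in WT, and IAA32 at 8.46 ± 2.01 CPM in iaa32iaa34 against 49.8 ± 6.21 CPM in WT (SD, n = 3). In tmk1 IAA32 was at 25.4 ± 3.10 CPM, so its level was lower than in WT in both mutants. IAA34 was not analysed here. Of 5 genes taken as marks of the dark-grown hook all 5 were measured, among them HLS1, which is needed for hook bending, and 6 root genes were not analysed here. Photosynthesis transcripts typical of cotyledons were present in every library and differed between them. The summed level of 11 of 12 genes of light harvesting and Rubisco, taken as cotyledon markers, was 11804 to 13986 CPM in tmk1, 15223, 6222 and 13999 CPM in iaa32iaa34 replicates 1, 2 and 3, and 3620 to 6282 CPM in WT. Replicate 2 of iaa32iaa34 thus stood apart from the other mutant libraries and inside the WT range. Results that rest on it are given with and without it. It was singled out after its values were seen, so results without it are descriptions. In pooled tissue, fewer cells of a type and less RNA per cell cannot be told apart.

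In WT hooks the members spanned a wide range of levels per length of exon. PHYA, the phytochrome that accumulates in darkness and senses far-red light, stood at 192 ± 20.5 CPM per kb, and HY5 at 173 ± 15.5 CPM per kb (SD, n = 3). The ranges of these genes overlapped, and both lay above all the other members. Then followed PIF3 at 37.2 ± 5.25, PIF4 at 32.0 ± 4.71, PIF5 at 27.7 ± 4.45, HYH at 27.4 ± 8.86 and PIF1 at 19.7 ± 4.57 CPM per kb, and each of these overlapped its neighbour in the order. PIF7, known from shade responses, was lowest at 1.17 ± 0.0454 CPM per kb and lay below all the others.

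The order among PIF genes differed between libraries. PIF3 was the highest of the 5 PIF transcripts per kb in all 3 WT libraries and in iaa32iaa34 replicate 2. PIF5 was the highest in all 3 tmk1 libraries, and PIF4 was the highest in iaa32iaa34 replicates 1 and 3. Some of these orders were near ties. In tmk1 replicate 2 PIF5 and PIF4 had the same CPM, and only the exon lengths set them apart, at 44.1 and 43.5 CPM per kb. PIF4 and PIF5 were at 48.1 and 47.2 CPM per kb in iaa32iaa34 replicate 3. In iaa32iaa34 replicate 2 PIF3 and PIF4 were at 34.6 and 34.4 CPM per kb. Of the summed PIF level per kb, PIF3 held 19.9, 22.1 and 24.1% in tmk1, 13.6, 29.9 and 19.1% in iaa32iaa34, and 33.4, 30.1 and 31.1% in WT. The share of PIF3 was thus below the WT range in every mutant library, by a narrow margin in iaa32iaa34 replicate 2. PIF5 held 33.1, 29.4 and 30.4% in tmk1, 30.6, 23.7 and 31.6% in iaa32iaa34, and 22.0, 25.7 and 22.8% in WT. The sum itself was 149 ± 11.7 CPM per kb in tmk1, 148 ± 31.4 in iaa32iaa34 and 118 ± 13.6 in WT (SD, n = 3). These shares are descriptions and were not tested.

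**Figure D1:**
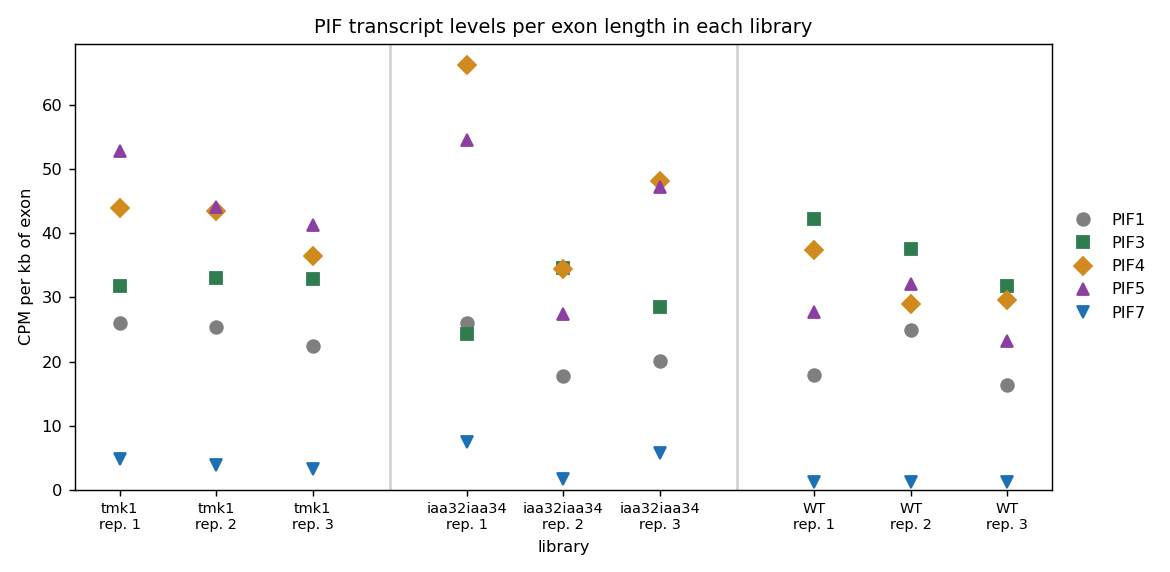
Level of each PIF transcript (CPM per kb of exon, vertical axis) in each of the 9 libraries (horizontal axis), 1 point per gene and library. PIF3 was the highest in the WT libraries and iaa32iaa34 replicate 2, PIF5 in the tmk1 libraries, and PIF4 in iaa32iaa34 replicates 1 and 3. The margins were very narrow in tmk1 replicate 2 and in iaa32iaa34 replicates 2 and 3.

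The comparison of tmk1 with WT asks which of these transcripts depend on the kinase. None of the 8 genes passed the threshold (limma on log2(CPM + 1), adjusted p under 0.05 over all genes), where 52 genes or 0.317% of the table did. A fit with a replicate block passed 323 genes or 1.97%, again with none of the 8. Without adjustment 3 of the 8, PIF5, PIF7 and HYH, had p under 0.05, all with higher values in tmk1, beside 9.65% of all genes with higher values. None had p under 0.05 with lower values, beside 11.7% of all genes. In the same 3 genes every tmk1 library lay above every WT library, which held for 11.5% of all genes, and none of the 8 lay wholly below WT, which held for 18.9%. The median log2 fold change of the 8 genes was 0.35, and that of all genes was -0.06.

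PIF7 had 9.47, 7.54 and 6.25 CPM in tmk1 replicates 1, 2 and 3, against 2.18, 2.35 and 2.30 CPM in WT. The groups did not overlap, and the WT libraries lay close together. The values rest on 76 to 109 reads per tmk1 library and 24 to 29 per WT library. The ratio of the mean levels was 3.40, and the log2 fold change was 1.40 ± 0.39 (limma, adjusted p = 0.0995). It was 1.64 with a pseudocount of 0.25 and 0.90 with 4.

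PIF5, a factor of dark growth and of elongation in warmth and shade, had 135, 113 and 106 CPM in tmk1, against 71.1, 82.3 and 59.6 CPM in WT. Again the groups did not overlap. The log2 fold change was 0.73 ± 0.24 (limma, adjusted p = 0.128). PIF4, the closest relative of PIF5 and known from growth in warmth, had 114, 113 and 94.5 CPM in tmk1, against 97.2, 75.3 and 76.9 CPM in WT. The lowest tmk1 library lay below the highest WT library, and the log2 fold change was 0.37 ± 0.22 (limma, adjusted p = 0.353).

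PIF1, which holds back seed germination and chlorophyll synthesis in darkness, had 60.9, 59.5 and 52.5 CPM in tmk1, against 41.9, 58.5 and 38.4 CPM in WT. WT replicate 2 lay among the tmk1 libraries, and the log2 fold change was 0.33 ± 0.19 (limma, adjusted p = 0.33). PIF3, the founding member of the family, had 87.6, 91.4 and 90.7 CPM in tmk1, against 117, 104 and 87.7 CPM in WT. The tmk1 libraries lay close together at the low end of the WT range, and the log2 fold change was -0.18 ± 0.16 (limma, adjusted p = 0.536).

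HYH had 43.8, 52.2 and 58.3 CPM in tmk1, against 16.6, 29.2 and 18.0 CPM in WT. The groups did not overlap, and the ratio of the means was 2.42. The log2 fold change was 1.27 ± 0.39 (limma, adjusted p = 0.115). Its partner HY5 had 239, 138 and 231 CPM in tmk1, against 200, 238 and 216 CPM in WT. In tmk1 replicate 2 the level was below all WT libraries, while the other tmk1 libraries lay among or just above them, and the log2 fold change was -0.14 ± 0.20 (limma, adjusted p = 0.722). Without tmk1 replicate 2 it was 0.11. Per kb, the HY5 level was 3.37, 1.63 and 2.44 times that of HYH in tmk1, 2.05, 5.38 and 1.67 times in iaa32iaa34, and 7.40, 5.04 and 7.40 times in WT. The ratio was lower in each tmk1 library and in iaa32iaa34 replicates 1 and 3 than in any WT library.

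PHYA had 1426, 909 and 1097 CPM in tmk1, against 1100, 922 and 915 CPM in WT. The groups overlapped, and the log2 fold change was 0.20 ± 0.25 (limma, adjusted p = 0.669). Its 95% interval ran from -0.34 to 0.75, so that a moderate change of PHYA in either direction would not have been detectable.

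**Figure D2:**
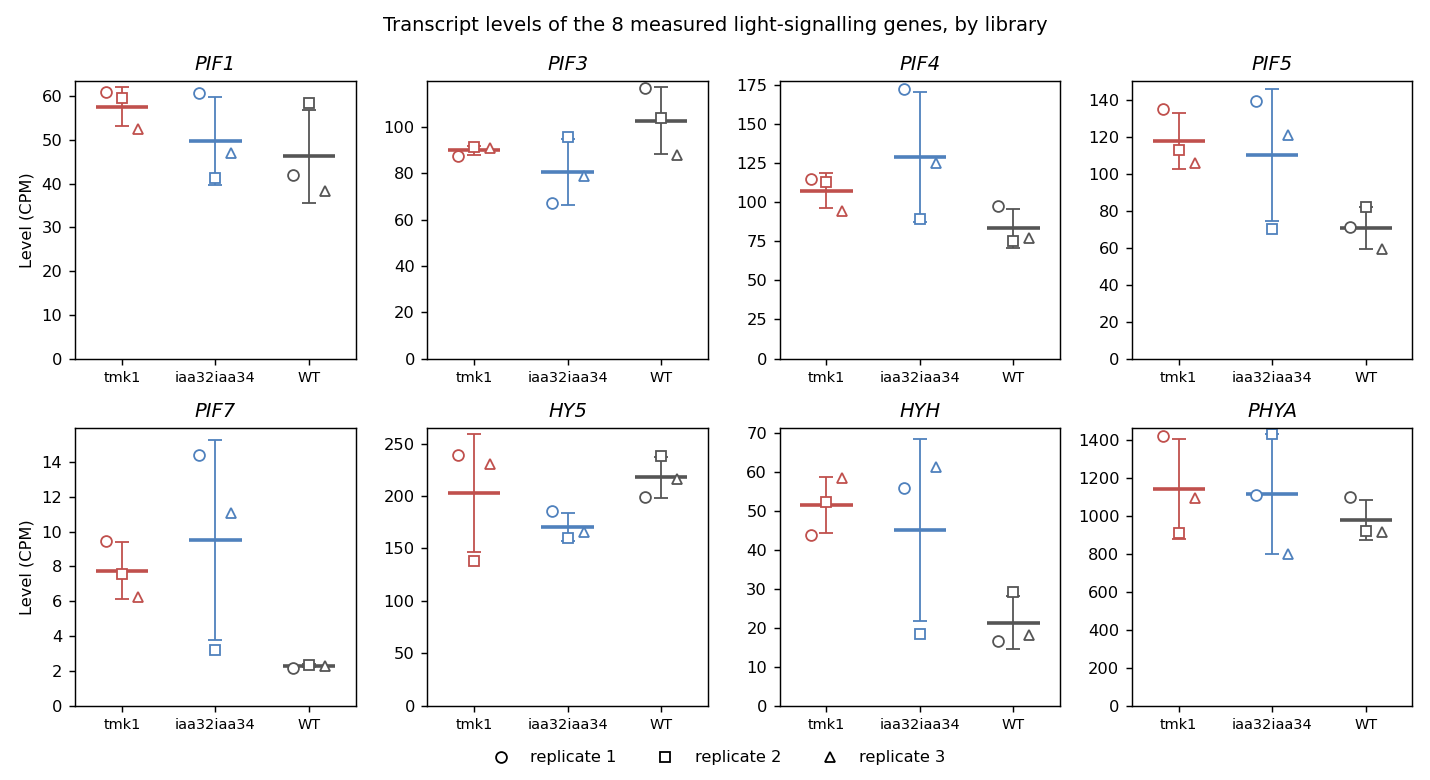
Level (CPM, vertical axes from 0) of the 8 measured genes in tmk1, iaa32iaa34 and WT hooks. Symbols are single libraries, with the shape giving the replicate number, and bars are means with SD (n = 3). The tmk1 and WT libraries do not overlap for PIF5, PIF7 and HYH, and iaa32iaa34 replicate 2 (square) lies near the WT libraries for these genes.

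The call for PIF5, PIF7 and HYH depended on the estimate of spread. All 9 libraries share it, and it includes the wide scatter of iaa32iaa34. In a fit of the 6 tmk1 and WT libraries alone PIF7 rose (limma, adjusted p = 0.0171), as did HYH (limma, adjusted p = 0.031) and PIF5 (limma, adjusted p = 0.0462), with 3.78% of all genes called. Leaving out iaa32iaa34 replicate 2 gave the same 3 calls (limma, adjusted p = 0.0122 for PIF7, 0.0218 for HYH and 0.0381 for PIF5), with 4.3% of genes called. Both settings left every tmk1 and WT value as it was. Replicate 2 of iaa32iaa34 was singled out by marker levels, so the calls without it are no independent test. With a block for the replicate number and all 9 libraries none of the 3 passed, at adjusted p = 0.0713 for PIF7, 0.107 for HYH and 0.0996 for PIF5 in limma. Cotyledon markers were higher in the same direction, since 11 of 11 lay above WT in every tmk1 library, beside 11.5% of all genes, and their median was 1.42 on the log2 scale. Their part in the values of PIF5, PIF7 and HYH was not tested.

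The comparison of iaa32iaa34 with WT asks which transcripts depend on the pair of repressors. It shares the WT libraries with the comparison before. None of the 8 genes passed (limma, adjusted p under 0.05), where 25 genes or 0.153% of the table did. Without adjustment 4 of 8, PIF4, PIF5, PIF7 and HYH, had p under 0.05 with higher values, beside 6.17% of all genes, and 1 of 8, PIF3, with lower values, beside 10.4% of all genes. The groups did not overlap for 1 gene with higher values, PIF7, beside 6.54% of all genes, and for 1 with lower values, HY5, beside 14.6%. The median log2 fold change of the 8 genes was 0.37, against -0.06 for all genes.

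The iaa32iaa34 libraries differed among themselves. PIF7 had 14.4, 3.19 and 11.1 CPM in iaa32iaa34 replicates 1, 2 and 3, against 2.18, 2.35 and 2.30 CPM in WT. Replicate 2 was just above the WT libraries and the other libraries far above them. The log2 fold change was 1.49 ± 0.39 (limma, adjusted p = 0.155). HYH had 55.7, 18.4 and 61.3 CPM in iaa32iaa34, against 16.6, 29.2 and 18.0 CPM in WT, so replicate 2 lay inside the WT range. Its log2 fold change was 0.92 ± 0.39 (limma, adjusted p = 0.279).

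PIF5 had 140, 70.3 and 121 CPM in iaa32iaa34, against 71.1, 82.3 and 59.6 CPM in WT, and the log2 difference was 0.58 ± 0.24 (limma, adjusted p = 0.265). PIF4 had 172, 89.4 and 125 CPM, against 97.2, 75.3 and 76.9 CPM in WT, and the log2 difference was 0.59 ± 0.22 (limma, adjusted p = 0.238). For both genes replicates 1 and 3 lay above all WT libraries and replicate 2 did not. PIF3 showed the opposite order, with 67.1, 95.6 and 78.9 CPM in iaa32iaa34, against 117, 104 and 87.7 CPM in WT. Replicates 1 and 3 lay below all WT libraries, and the log2 fold change was -0.35 ± 0.16 (limma, adjusted p = 0.297).

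Without iaa32iaa34 replicate 2, 4 of the 8 genes rose against WT, where 3.94% of all genes were called. The log2 fold changes were then 2.05 ± 0.21 for PIF7, 1.46 ± 0.23 for HYH, 0.88 ± 0.18 for PIF5 and 0.82 ± 0.19 for PIF4 (limma, adjusted p = 0.00301, 0.0168, 0.0321 and 0.0455 in that order). PIF3 was at -0.48 ± 0.15 and did not pass (limma, adjusted p = 0.111). Replicate 2 was singled out for marker levels inside the WT range. Larger differences without it, in genes that go with the markers, follow in part from that choice. These calls are therefore no independent test. The cotyledon markers followed the same split of libraries, at 15223 and 13999 CPM in replicates 1 and 3 and 6222 CPM in replicate 2, and their part in these values was not tested.

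HY5 had 185, 160 and 166 CPM in iaa32iaa34, against 200, 238 and 216 CPM in WT, and was the member with lower values whose groups did not overlap. It was also the member with the smallest relative spread among the iaa32iaa34 libraries, a coefficient of variation of 7.77%, against 60.2% for PIF7. Its log2 fold change was -0.35 ± 0.20 (limma, adjusted p = 0.406), and -0.31 ± 0.23 without replicate 2. PIF1 had 60.9, 41.4 and 47.0 CPM in iaa32iaa34, against 41.9, 58.5 and 38.4 CPM in WT, with no order between the groups. Its log2 fold change was 0.11 ± 0.19 (limma, adjusted p = 0.806), and 0.23 ± 0.20 without replicate 2. PHYA had 1113, 1434 and 801 CPM, against 1100, 922 and 915 CPM in WT, and replicate 2 was here the highest library. The log2 fold change was 0.15 ± 0.25 (limma, adjusted p = 0.785), and -0.05 ± 0.24 without replicate 2.

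**Figure D3:**
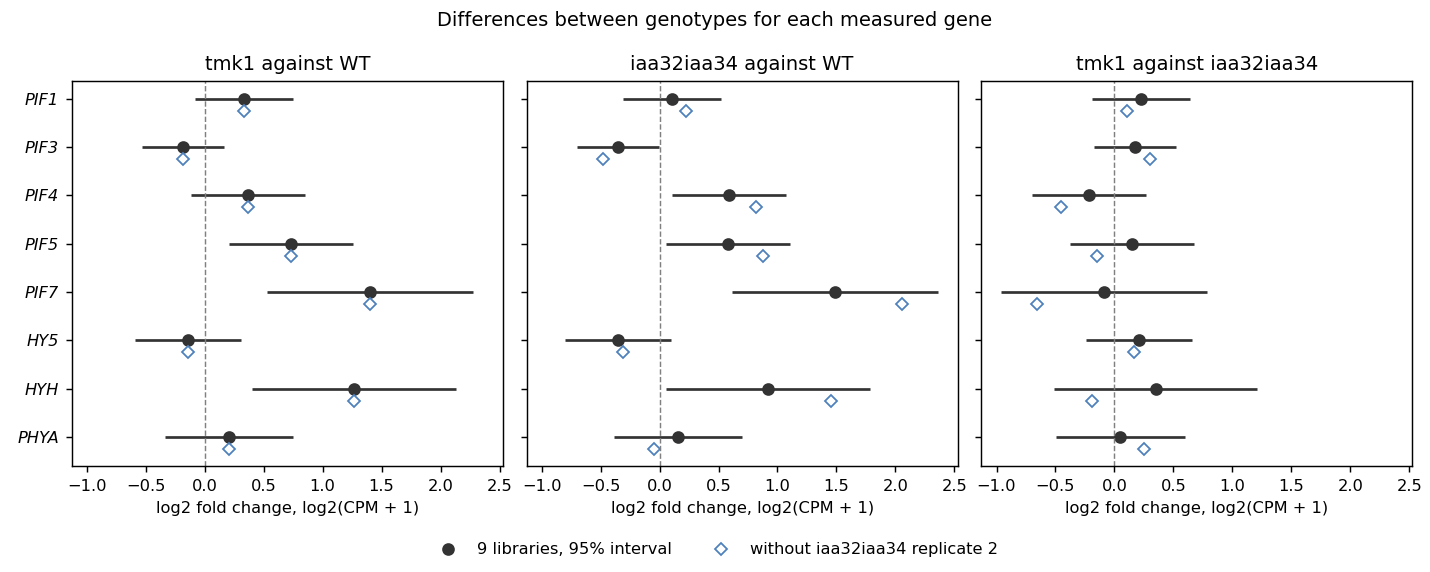
Log2 fold change on the log2(CPM + 1) scale (horizontal axis) of each gene in the 3 comparisons. Filled points with bars are the fit of all 9 libraries with its 95% interval, and open diamonds are the fit without iaa32iaa34 replicate 2. Leaving out that library gave 2.05 for PIF7 in iaa32iaa34 against WT, where all 9 libraries gave 1.49. In tmk1 against iaa32iaa34 it gave -0.65 for PIF7, where all 9 gave -0.09. The values of tmk1 against WT stayed where they were.

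Between the mutants none of the 8 genes passed (limma, adjusted p under 0.05), where 9 genes or 0.0549% of the table did, and none had an unadjusted p under 0.05, beside 8.12% of all genes. The groups overlapped for all 8, whereas 7.1% of all genes lay wholly higher and 6.16% wholly lower in tmk1. The intervals were wide for the members with the most scatter. PIF7 had a log2 fold change of -0.09 in tmk1 against iaa32iaa34, with a 95% interval from -0.96 to 0.79, and HYH 0.35 with an interval from -0.51 to 1.21. Those of PIF3, from -0.18 to 0.52, and PIF1, from -0.19 to 0.64, were narrower. Without iaa32iaa34 replicate 2 the value of PIF7 was -0.65 ± 0.21, of PIF4 -0.45 ± 0.19 and of HYH -0.19 ± 0.23, and none passed (limma, adjusted p = 0.566, 0.636 and 0.825). The median over the 8 genes was 0.16, and -0.02 without that library.

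Across the 9 libraries PIF5, PIF7 and HYH went together, and PIF4 and PIF1 in part. Pearson's r of log2(CPM + 1) over the 9 libraries was 0.95 between PIF5 and PIF7, 0.91 between PIF5 and HYH, and 0.89 between PIF4 and PIF7. PIF1 was at 0.80 with PIF5, 0.72 with HYH and 0.62 with PIF7, and PIF4 was at 0.66 with HYH. Between PIF3 and PIF7 it was -0.82. HY5 and HYH, in spite of their kinship, were at -0.13, and PHYA was between -0.24 and 0.19 with every other member. The points share genotype and tissue content, so these values describe the libraries and carry no p. Among all genes with a symbol, those most like HYH were STH, also called BBX25, a B-box protein gene (r = 0.988 over the 9 libraries), and OHP, a gene of a one-helix protein of the light-harvesting superfamily (r = 0.985). BBX25 had 61.6 ± 4.71 CPM in tmk1, 59.4 ± 29.9 CPM in iaa32iaa34 and 31.6 ± 11.1 CPM in WT (SD, n = 3), with iaa32iaa34 replicate 2 inside the WT range at 24.9 CPM. Those most like PIF5 were LHCA4, a light-harvesting gene of photosystem I (r = 0.980), and JAC1, known from chloroplast movement (r = 0.978). Those most like PIF7 were WRR4, a gene of resistance to white rust (r = 0.976), and ACS10 (r = 0.974).

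**Figure D4:**
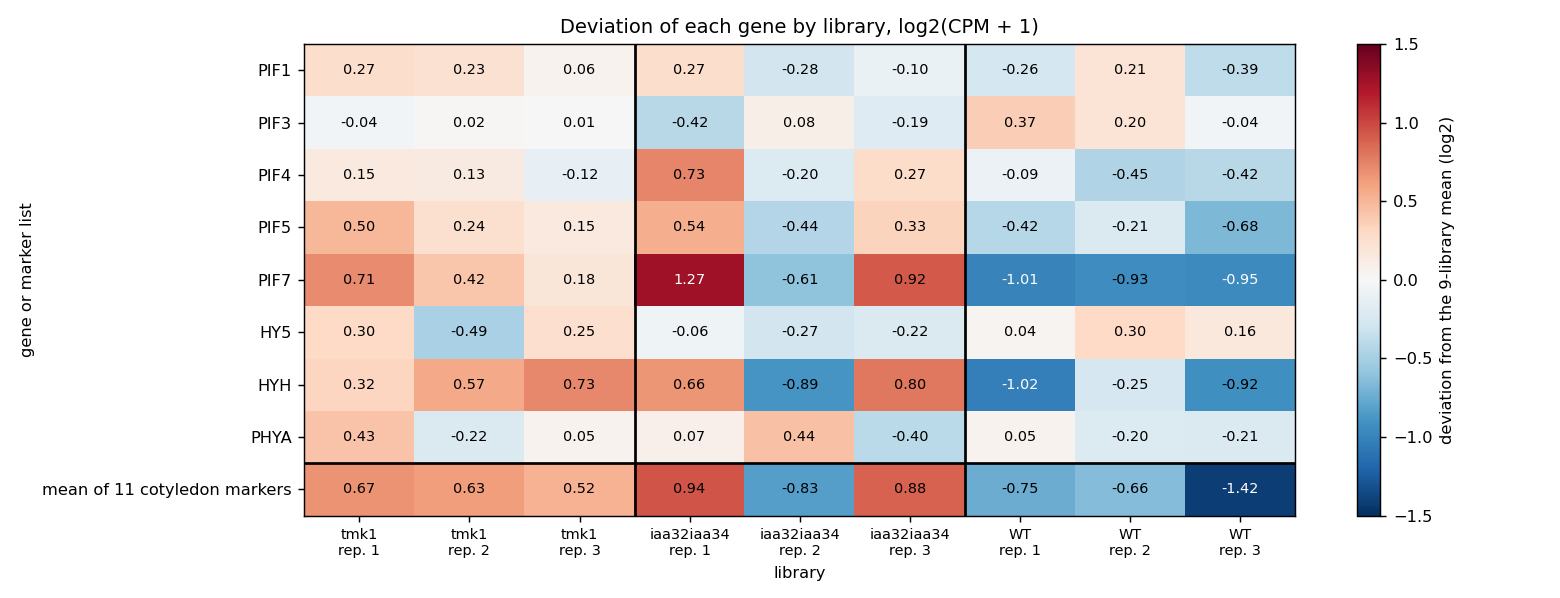
Deviation of each gene from its mean over the 9 libraries (log2 units, colour and printed value) in each library, with the mean over 11 cotyledon marker genes in the bottom row. PIF5, PIF7 and HYH are above their means in the 3 tmk1 libraries and in iaa32iaa34 replicates 1 and 3, as are the markers, whereas HY5 and PHYA follow another order.

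Other genes of the pathway were described from lists, by how many of their measured members passed over all genes and by their median beside that of all genes. Of all genes, 41.9% had higher values in tmk1 than in WT, 41.8% had higher values in iaa32iaa34 than in WT, and 52.1% had higher values in tmk1 than in iaa32iaa34, and the medians were -0.06, -0.06 and 0.01. Among relatives and inhibitors of PIFs, 8 of 9 measured genes had lower values in tmk1 than in WT, the median stood at -0.50, and 1 fell, beside 0.195% of all genes. This was PAR2, a small helix-loop-helix protein that binds PIFs and blocks them, at 95.7 ± 1.41 CPM in tmk1 and 170 ± 9.05 CPM in WT (SD, n = 3). Its log2 fold change was -0.82 ± 0.14 (limma, adjusted p = 0.0479), and it passed under 7 of 17 alternatives, with adjusted p-values of 0.0188 to 0.229. It missed the threshold without any single tmk1 or WT library. In iaa32iaa34 4 of the 9 had lower values, the median was 0.04, or -0.02 without iaa32iaa34 replicate 2, and none passed. The member with the smallest p there was PAR1, a close relative of PAR2, at 28.2 ± 3.99 CPM in iaa32iaa34 and 40.7 ± 7.06 CPM in WT (limma, adjusted p = 0.192).

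Of 13 measured genes known to be induced by PIFs 11 had lower values in tmk1 than in WT, with a median of -0.48, and none passed. This count is not separate from others. PIL1 and PAR1 are also among the relatives and inhibitors, and HLS1, ATHB2 and IAA19 among the marks of the hook. PRE5, a helix-loop-helix gene of cell elongation, had 12.6 ± 2.19 CPM in tmk1 and 25.6 ± 2.09 CPM in WT (limma, adjusted p = 0.0647), and it fell with the replicate block (limma, adjusted p = 0.0321). In iaa32iaa34 6 of 13 were lower, the median was 0.03, or -0.12 without iaa32iaa34 replicate 2, and PRE5 stood at 13.2 ± 2.94 CPM (limma, adjusted p = 0.133, and adjusted p = 0.0375 without iaa32iaa34 replicate 2). Between the mutants 11 of 13 were lower in tmk1, with a median of -0.46, or -0.30 without iaa32iaa34 replicate 2, and none past the threshold. The member with the smallest p was IAA29, an Aux/IAA gene, at 11.8 ± 3.99 CPM in tmk1 and 22.4 ± 1.75 CPM in iaa32iaa34 (limma, adjusted p = 0.371).

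Genes of greening, which PIFs are known to hold back in darkness, had higher values in both mutants. In tmk1 all 18 measured members were higher than in WT, with a median of 1.31, and in all 18 the groups did not overlap, beside 11.5% of all genes. In the fit of all 9 libraries 1 of the 18 passed, where 0.122% of all genes were called higher. This was CGA1, a GATA factor of chloroplast development, which rose to 24.9 ± 6.23 CPM in tmk1, against 1.35 ± 0.826 CPM in WT, or 3.49 ± 0.60 on the log2 scale (limma, adjusted p = 0.0485). It passed under 7 of 17 alternatives, with adjusted p-values of 0.00205 to 0.242, and its log2 fold change over them was 2.42 to 4.07. It missed the threshold without tmk1 replicate 1 or 3, without iaa32iaa34 replicate 3 or without any single WT library. With the replicate block 4 of the 18 rose in tmk1, where 1.97% of all genes were called. In the fit of the 6 tmk1 and WT libraries alone 15 of 18 rose, where 3.78% of all genes were called, and 15 of 18 also rose without iaa32iaa34 replicate 2, where 4.3% were called. In iaa32iaa34 18 of 18 were higher, with a median of 1.06, none passed, and the groups did not overlap for 3 of them, beside 6.54% of all genes. Without iaa32iaa34 replicate 2 the median was 1.52 and 15 of 18 rose, where 3.94% of all genes were called. These are the same 15 genes that rose in tmk1 without that library, and both comparisons share the WT libraries. LHCA2, a light-harvesting gene, had 767 ± 162 CPM in tmk1, 647 ± 159 CPM in iaa32iaa34 and 259 ± 87.8 CPM in WT (limma, adjusted p = 0.0601 in tmk1 and 0.133 in iaa32iaa34). The 11 cotyledon markers are themselves among these 18 genes. Replicate 2 of iaa32iaa34 was set apart by those markers. The larger median and the calls of iaa32iaa34 without it are therefore no separate evidence. The calls of tmk1 without it rest on a smaller shared spread, as no tmk1 or WT value changed, and are no separate evidence either. LHCB1.1 and RBCS1A belong to families of near-identical genes whose reads may be divided in ways not known here.

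Genes listed as induced by HY5 gave a mixed picture. Whether HY5 raises or lowers each of them was not checked. The list includes BBX30, with log2 fold changes against WT of -0.76 in tmk1 and 0.85 in iaa32iaa34. In tmk1 5 of 8 measured genes were higher and 3 lower, with a median of 0.77 and none past the threshold. BBX22, a B-box partner of HY5 and itself a target, had 31.2 ± 5.78 CPM in tmk1, 37.1 ± 14.1 CPM in iaa32iaa34 and 55.2 ± 16.5 CPM in WT (limma, adjusted p = 0.141 in tmk1 and 0.309 in iaa32iaa34). In iaa32iaa34 6 of 8 were higher, none passed, and the median was 0.20. Without iaa32iaa34 replicate 2 that median was 0.93, and ELIP2, an early light-induced protein gene, rose. Of the 9 measured B-box genes 7 were lower in tmk1, with a median of -0.26, and 5 in iaa32iaa34, with a median of -0.06, and none passed in either with all 9 libraries. Without iaa32iaa34 replicate 2 BBX25 rose in both mutants, as it did in the 6 tmk1 and WT libraries alone, and the iaa32iaa34 median was -0.22. BBX20 had 26.1 ± 7.22 CPM in iaa32iaa34 and 43.1 ± 8.53 CPM in WT (limma, adjusted p = 0.177). Between the mutants the B-box gene with the smallest p was BBX30, at 6.89 ± 1.01 CPM in tmk1 and 25.1 ± 13.2 CPM in iaa32iaa34 (limma, adjusted p = 0.38).

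Upstream genes of the pathway included partners of COP1, photoreceptors and ubiquitin ligases. Among 16 partners of COP1 and subunits of the COP9 signalosome and related complexes 11 were lower in tmk1 (median -0.08) and 13 in iaa32iaa34 (median -0.16), with none past the threshold. The members with the smallest p were CSN8 in tmk1, at 19.3 ± 0.771 CPM against 24.7 ± 1.94 CPM in WT, and CSN5B in iaa32iaa34, at 5.40 ± 1.56 CPM against 8.64 ± 1.68 CPM in WT (limma, adjusted p = 0.172 and 0.21). Of 6 other photoreceptor genes 4 were higher in each mutant, with medians of 0.16 in tmk1 and 0.07 in iaa32iaa34. Of the remaining phytochromes, named after their values were seen, PHYD was at 15.1 ± 1.83 CPM in tmk1, 14.2 ± 0.372 CPM in iaa32iaa34 and 17.2 ± 2.56 CPM in WT. PHYE was at 35.1 ± 4.42 CPM in tmk1, 32.9 ± 6.65 CPM in iaa32iaa34 and 31.1 ± 6.92 CPM in WT, and the groups overlapped for both genes. PHOT2, a blue-light receptor of chloroplast movement, had 179 ± 22.8 CPM in tmk1, 174 ± 99.9 CPM in iaa32iaa34 and 88.1 ± 40.2 CPM in WT (limma, adjusted p = 0.169 in tmk1 and 0.317 in iaa32iaa34). Of 6 genes of phytochrome import and its partners 4 were higher in tmk1 (median 0.20) and 1 in iaa32iaa34 (median -0.07, or -0.22 without iaa32iaa34 replicate 2). TZP, a nuclear partner of phytochrome, had 108 ± 5.88 CPM in tmk1, 97.9 ± 49.2 CPM in iaa32iaa34 and 51.3 ± 14.9 CPM in WT (limma, adjusted p = 0.108 in tmk1 and 0.251 in iaa32iaa34). Without iaa32iaa34 replicate 2 it rose in both (limma, adjusted p = 0.0353 in tmk1 and 0.0346 in iaa32iaa34).

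Among 3 ubiquitin ligase genes that act on PIFs, medians were -0.08 in tmk1 and -0.16 in iaa32iaa34, or -0.37 without iaa32iaa34 replicate 2, and none passed. LRB1 had 127 ± 58.2 CPM in tmk1 and 94.0 ± 22.7 CPM in WT, and EBF1 had 139 ± 37.3 CPM in iaa32iaa34 and 152 ± 14.9 CPM in WT (limma, adjusted p = 0.626 and 0.699). Of the 3 protochlorophyllide reductases, enzymes of chlorophyll synthesis, none passed. PORC had 46.8 ± 14.8 CPM in tmk1 and 27.2 ± 4.95 CPM in WT, and PORB had 447 ± 67.9 CPM in iaa32iaa34 and 610 ± 111 CPM in WT (limma, adjusted p = 0.187 and 0.277). PORA, the form typical of dark-grown seedlings, had 224 ± 15.9 CPM in tmk1 and 104 ± 31.6 CPM in iaa32iaa34 (limma, adjusted p = 0.476).

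Between the mutants no gene of any list passed. The members with the smallest p included HMR, needed for phytochrome signalling in the nucleus, at 42.6 ± 6.81 CPM in tmk1 and 27.9 ± 3.88 CPM in iaa32iaa34 (limma, adjusted p = 0.554). PHOT1, a blue-light receptor of phototropism, had 588 ± 27.6 CPM in tmk1 and 728 ± 316 CPM in iaa32iaa34 (limma, adjusted p = 0.828). PAR2 had 95.7 ± 1.41 CPM in tmk1 and 130 ± 21.8 CPM in iaa32iaa34, and CGA1 had 24.9 ± 6.23 CPM in tmk1 and 6.53 ± 6.17 CPM in iaa32iaa34 (limma, adjusted p = 0.491 and 0.38).

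**Figure D5:**
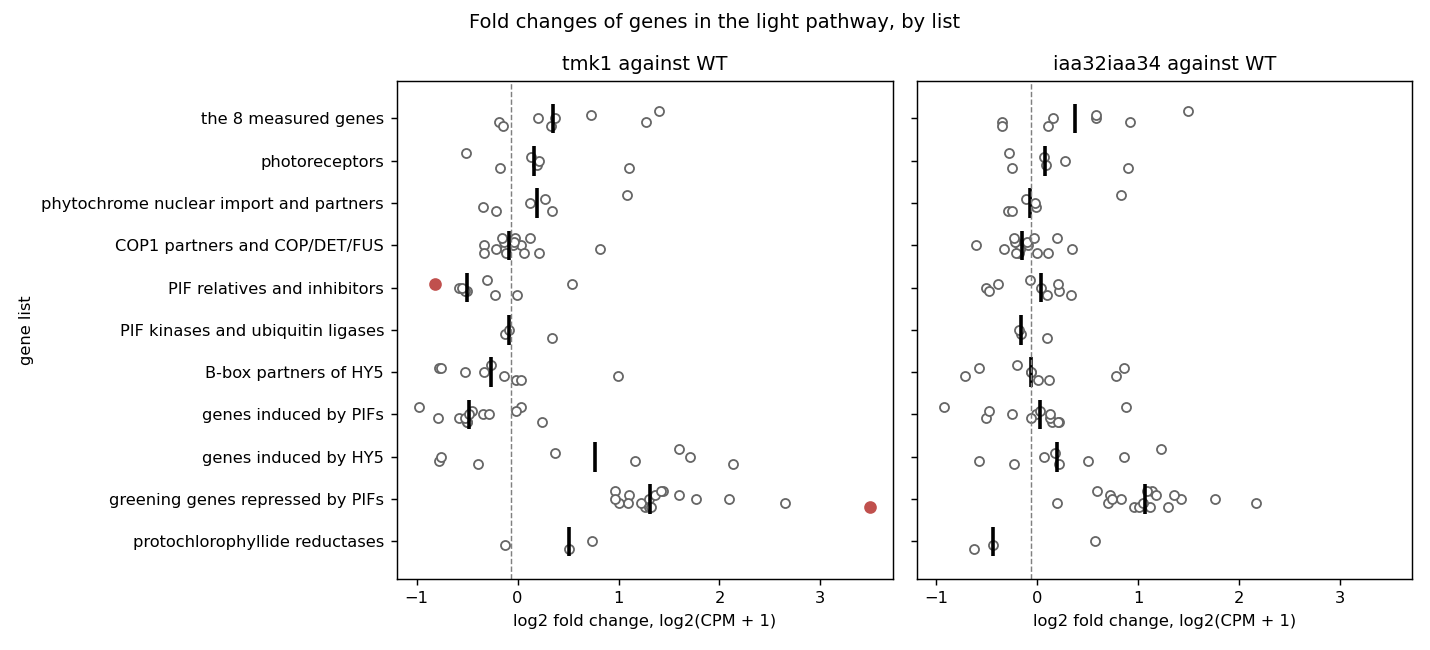
Log2 fold change (horizontal axis, log2(CPM + 1) scale) of the 8 measured genes and of each list of the pathway (rows) in tmk1 against WT and iaa32iaa34 against WT. Open circles are genes that did not pass, filled circles are genes that passed in limma, black bars are list medians, and the dashed line is the median of all genes. The greening genes have medians of 1.31 and 1.06, and the genes induced by PIFs -0.48 and 0.03.

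Markers of other tissue were examined beside these values. Of the 5 marks of the dark-grown hook, 4 had lower values in tmk1, with a median of -0.48. In iaa32iaa34 2 had lower values and 3 higher, with a median of 0.03, or -0.16 without iaa32iaa34 replicate 2. In tmk1 1 of the 5, the auxin-regulated gene SAUR17, fell, where 0.195% of all genes were called lower. It had 0.329 ± 0.173 CPM in tmk1 against 2.45 ± 0.79 CPM in WT (limma, adjusted p = 0.0485). It passed under 6 of 16 alternatives, missing the threshold without iaa32iaa34 replicate 3 or any single tmk1 or WT library, and its tmk1 values are near or below the floor of 3 reads, 0.221 to 0.298 CPM. Outside WT only iaa32iaa34 replicates 2 and 3 were above 1 CPM. SAUR17 thus met CPM above 1 in 3 libraries only through WT, where it is high, so its fall is a description. None of the 6 measured endodermis genes passed. Their summed level spread widely within each genotype, and replicate 1 was the lowest in each. Replicates 1, 2 and 3 had 47.7, 195 and 136 CPM in tmk1 and 77.4, 317 and 347 CPM in iaa32iaa34. In WT they had 53.5, 158 and 423 CPM. The cause of this spread was not tested. CASP5, which had the smallest p, had 75.0 ± 40.0 CPM in tmk1 and 124 ± 93.3 CPM in WT (limma, adjusted p = 0.669). Of 4 shoot meristem genes 1 was measured, KNAT1, at 132 ± 26.1 CPM in tmk1, 153 ± 4.88 CPM in iaa32iaa34 and 148 ± 20.7 CPM in WT, and the defining genes STM, WUS and CLV3 were not analysed here.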

How the data were processed

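RNA-seq libraries of 9 hook pools were described by 1 deposited table of CPM values, which the authors made from reads with HISAT and HTSeq, per the submitters' processing notes. No source used here names the genome build, annotation, strand setting or filters, so values of overlapping, antisense or near-identical genes are uncertain. No coordinates or sequences are given for this reason. Every gene had CPM above 1 in at least 3 libraries. CPM values were whole multiples of 1 step per library to within 0.01 of a read, which gave the library totals. No count model was fitted. Groups came from the labels. The labels speak of biological triplicates, without saying whether hooks were grown separately, so p-values may measure technical spread.

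log2(CPM + 1) values of all 9 libraries were fitted by genotype with limma 3.58.1 under R 4.3.3. The moderated test was two-sided and used an intensity trend, with Benjamini-Hochberg adjustment over 16383 genes and a threshold of 0.05. Asking for CPM of 1 or more in 3 libraries removed 0 genes. With 3 libraries a side, exact permutation reaches p = 0.1 at best and was not used. Errors are SD for CPM and SE for log2 fold changes. The fit was tested on simulated data with the same setting of spread for every gene and group, unlike the scatter seen here. No result rests on that test.

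Members were the 10 identifiers given, with 8 measured. Of 128 genes in 15 lists 93 were used, 31 were not analysed here and 4 were left out because the reference (TAIR10.1) gives them other names only. Members and lists were chosen with earlier results of these data known. The named genes are all measured members, up to 4 list genes past the threshold or else the 1 with the smallest p, and for the 3 members with the smallest p in tmk1 the 2 genes most like each. Levels per kb used the union of annotated mRNA exons in TAIR10.1. Same-numbered tmk1 and WT libraries deviated together from their genotype means (r = 0.528, 0.129 and 0.140 across genes). The fit with a replicate block is therefore given beside that comparison where it changes a call or a count. Unlike-numbered tmk1 and WT libraries had r of -0.461 to 0.304. For iaa32iaa34 and WT the values at the same number were 0.348, -0.398 and 0.459, and at unlike numbers they were -0.628 to 0.469. For tmk1 and iaa32iaa34 the values at the same number were 0.364, -0.141 and 0.123, and at unlike numbers they were -0.515 to 0.373. In each comparison some unlike-numbered pairs exceeded some same-numbered ones, so pairing by number was not shown. Alternatives were pseudocounts of 0.25 and 4, no filter, a mean CPM of at least 5, median-of-ratios scaling, no trend, the libraries of each comparison alone, the replicate block, and each library left out.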

Additional observations from a re-analysis of the deposited data

How the results depend on the processing

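Over 17 alternatives the 24 log2 fold changes of the 8 measured genes gave 408 values, of which 386 kept their direction and their side of the threshold, 12 turned in sign and 10 came to pass. The 10 are those of PIF5, PIF7 and HYH in tmk1 in the fit of the 6 libraries of the comparison alone and in the fit without iaa32iaa34 replicate 2, and those of PIF4, PIF5, PIF7 and HYH in iaa32iaa34 without the same library. So the number of measured genes called in tmk1 against WT was 3 with the 6 libraries alone and 0 to 3 over the fits with 1 library left out, in iaa32iaa34 against WT it was 0 to 4 over those fits, and between the mutants 0 under all alternatives. The number of all genes called in tmk1 against WT was 31 with a pseudocount of 0.25, 18 with a mean CPM of at least 5 (where fewer genes were tested), 31 with median-of-ratios scaling, 323 with the replicate block and 620 with the 6 libraries alone. In iaa32iaa34 against WT it was 10 with a mean CPM of at least 5, 11 with the replicate block and 12 with the 6 libraries alone, and between the mutants 3 with the 6 libraries alone. With 1 library left out these counts were 6 to 704, 5 to 645 and 3 to 8. For tmk1 against WT, leaving out tmk1 replicates 1, 2 and 3 in turn gave 6, 166 and 7 genes, leaving out those of iaa32iaa34 gave 174, 704 and 21, and leaving out those of WT gave 12, 8 and 6. For iaa32iaa34 against WT the counts were 10, 32 and 10 for tmk1 left out, 5, 645 and 6 for iaa32iaa34, and 7, 5 and 7 for WT. The cause was not tested. The replicate block changed no call of a measured gene. Replicate 2 of iaa32iaa34 had negative r of deviations with the same-numbered libraries of the other genotypes, while replicates 1 and 3 had positive values. Pairs of unlike number could be higher still, such as 0.469 for WT replicate 2 and iaa32iaa34 replicate 1. With the block 11 genes were called in iaa32iaa34 against WT and 10 in tmk1 against iaa32iaa34.

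Signs turned in single fits with 1 library left out, over which the log2 fold changes ran as follows. In tmk1 against WT they were -0.28 to 0.11 for HY5 and -1.20 to 0.026 for CASP5. In iaa32iaa34 against WT they were -0.044 to 0.29 for PIF1, -0.047 to 0.37 for PHYA, -0.18 to 1.07 for CASP5 and -0.053 to 0.15 for KNAT1. In tmk1 against iaa32iaa34 they were -0.45 to 0.017 for PIF4, -0.14 to 0.34 for PIF5, -0.65 to 0.28 for PIF7, -0.19 to 0.65 for HYH, -0.17 to 0.25 for PHYA, -0.47 to 0.11 for PHOT1 and -0.061 to 0.67 for LRB1. Fold changes of the other named genes gave 644 values, of which 593 kept direction and side of the threshold, 6 turned in sign, 15 came to pass and 30 no longer passed. The 30 are 10 each of PAR2, CGA1 and SAUR17 in tmk1 against WT, and a mean CPM of at least 5 left no value for SAUR17. The count models planned for recovered reads were not run, since the table is used as CPM. At 24 to 29 reads per WT library, depth limits PIF7 most among the measured genes.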
